A study of Mus musculus with 5 samples.

Results

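The genes described here are the 46 mouse genes for Wnt ligands, Frizzled (Fzd) and Lgr receptors, secreted antagonists and R-spondins, taken by symbol out of 21631 protein-coding genes on the chromosomes of both region lists. They comprise 19 Wnt genes, 10 Fzd and 3 Lgr genes, 10 antagonist genes (4 Sfrp genes, Frzb, 4 Dkk genes and Wif1) and 4 Rspo genes, all on autosomes. Basal epidermal progenitors of control mice, isolated from back skin at the age of 71 days, were studied by chromatin immunoprecipitation and sequencing. All mice carried the reporters K14-RFP and K10-H2B-GFP, driven by promoters of a basal and a suprabasal keratin, and Sca1-positive cells with high RFP and no GFP were sorted, so the cells are the basal layer by reporter and surface marker. There were 2 libraries for H3K27me3, 2 for H2AK119ub and 1 input library. The labels give neither the number nor the sex of the mice, and no further allele of the control genotype.

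For each mark the authors deposited 1 list of called regions, 15102 for H3K27me3 and 33155 for H2AK119ub, with positions and without height, score or replicate. Read depth per library and replicate error are therefore unknown, and no test was made; every count below describes these lists. A gene was counted as marked when at least 1 bp of a called region lay over its annotated RefSeq body or the 1 kb on either side. Where no region was called, a mark too weak for the caller may still be present. Of 7 defining genes of basal epidermis (Krt5, Krt14, Krt15, Trp63, Itga6, Itgb4 and Col17a1), 7 had H2AK119ub and 0 had H3K27me3. H3K27me3 was called at 5 of 7 dermal fibroblast genes, 1 of 6 melanocyte genes and 3 of 4 immune genes. H2AK119ub was called at 4, 5 and 2 of them in the same order, so that it did not separate melanocyte from basal genes. Over all autosomal protein-coding genes the shares were 24.9% for H3K27me3 and 60% for H2AK119ub. These marker lists are short, and the counts were not used to identify the cells.

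Wnt proteins are secreted, lipid-modified ligands that bind Frizzled receptors together with the co-receptors Lrp5 and Lrp6 and thereby stabilise beta-catenin. Sfrp proteins, Frzb and Wif1 bind Wnts outside the cell, Dkk1, Dkk2 and Dkk4 act on the co-receptors, and R-spondins bound to Lgr receptors keep Frizzled proteins at the cell surface. In skin the pathway is known for the formation and cycling of hair follicles and for the maintenance of basal cells. H3K27me3 is laid down by Polycomb repressive complex 2 and H2AK119ub by Polycomb repressive complex 1, and both marks are best known at silent developmental genes.

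Most ligand genes had a called region of both marks, while most Frizzled genes carried H2AK119ub without H3K27me3. H3K27me3 was called at 15 of 19 Wnt genes, against 3 of 10 Fzd genes, 2 of 3 Lgr genes and 8 of 10 antagonist genes. All 4 Rspo genes had it. Over the same window, 24.9% of the 20665 autosomal protein-coding genes had H3K27me3, so the Frizzled share of 30.0% lay near that of all genes and the ligand share of 78.9% and the antagonist share of 80% lay above it. H2AK119ub was called at 19 of 19 Wnt genes, 10 of 10 Fzd genes and 3 of 3 Lgr genes, and at 7 of 10 antagonist and 3 of 4 Rspo genes, against 60% of all genes. Taken over all 46 genes, 29 had both marks (63.0%, against 21.6% of all genes), 13 had H2AK119ub alone (38.4% of all genes), 3 had H3K27me3 alone (3.24% of all genes) and 1 had neither (36.7% of all genes). Of the 46 genes, 32 (69.6%) thus had H3K27me3 and 42 (91.3%) had H2AK119ub. Among genes with H3K27me3, H2AK119ub was also present at 90.6% of these 32 genes and at 87.0% of all such genes, so that the 2 shares were close.

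**Figure D1:**
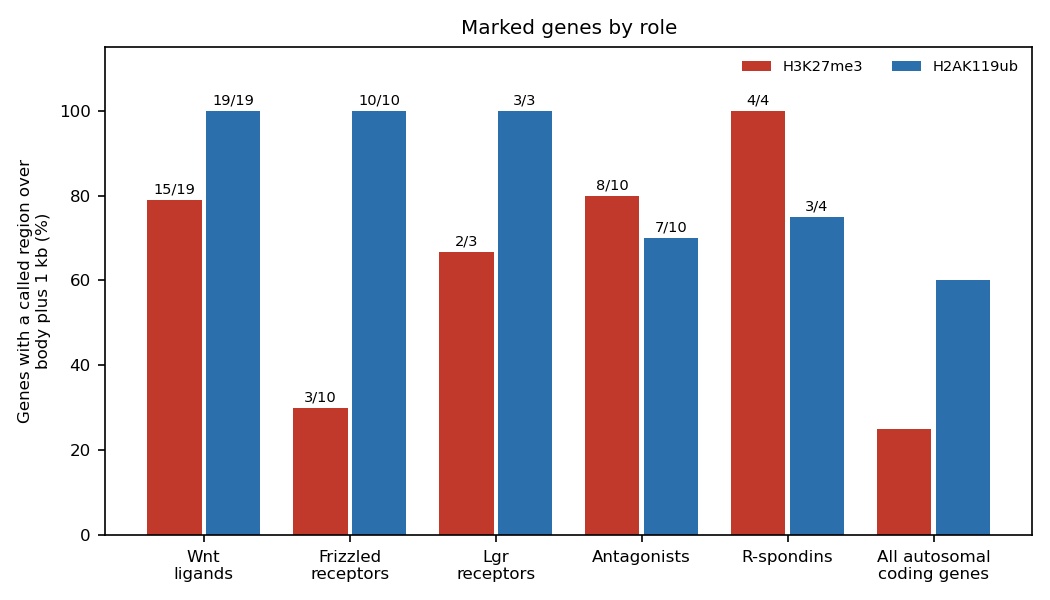
Share of genes in each role group with a called region over the gene body plus 1 kb (y axis, percent), for H3K27me3 (red) and H2AK119ub (blue), with marked and total genes above each bar and all autosomal protein-coding genes at the right. The Frizzled bar for H3K27me3 (3 of 10) lies near the 24.9% of all genes, whereas the Wnt ligand bar (15 of 19) lies above it.

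Body lengths differed between the role groups, and a long gene meets more regions. The annotated body had a median of 22.9 kb for Wnt genes, 4.59 kb for Fzd genes and 17.5 kb for all genes. A window of fixed size, 1 kb either side of an annotated start, was therefore scored for the 31 genes whose start is in the RefSeq promoter table. H3K27me3 met this window at 13 of 15 Wnt genes, against 2 of 6 Fzd genes, 1 of 2 Lgr genes and 6 of 6 antagonist genes. At 2 of 2 Rspo genes it did so as well, and among all genes with a listed start the share was 18.7%. H2AK119ub met the window at 29 of the 31 genes, against 50.1% of all genes. When only regions at least as wide as the median of their own list were kept, H3K27me3 remained at 8 of 19 Wnt genes, against 3 of 13 Fzd and Lgr genes and 7 of 10 antagonist genes (15.8% of all genes). The ligand share thus depended on narrow regions more than the antagonist share did.

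The sequence at the starts is shown for 6 genes, because the marks lie over it and the genes differ in which marks they have. They are the ligand, the Frizzled receptor and the antagonist with the widest H3K27me3 region among those with both marks (Wnt8b, Fzd4 and Sfrp5), the ligand and the Frizzled receptor with the widest H2AK119ub region among those with H2AK119ub alone (Wnt4 and Fzd10), and Dkk2, which had H3K27me3 alone. Each window runs 5′ to 3′ on the strand of the gene, from 250 bases before the annotated start to 50 bases after it, in RefSeq build GRCm38.p6 (mm10), with CG dinucleotides in capitals.
Wnt8b (chr19:44493222-44493521, plus strand): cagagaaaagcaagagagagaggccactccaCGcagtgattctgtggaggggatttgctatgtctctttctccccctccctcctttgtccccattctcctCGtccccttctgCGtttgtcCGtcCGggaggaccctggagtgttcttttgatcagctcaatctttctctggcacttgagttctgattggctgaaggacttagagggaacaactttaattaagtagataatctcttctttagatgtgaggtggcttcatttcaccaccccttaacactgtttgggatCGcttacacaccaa
Fzd4 (chr7:89404116-89404415, plus strand): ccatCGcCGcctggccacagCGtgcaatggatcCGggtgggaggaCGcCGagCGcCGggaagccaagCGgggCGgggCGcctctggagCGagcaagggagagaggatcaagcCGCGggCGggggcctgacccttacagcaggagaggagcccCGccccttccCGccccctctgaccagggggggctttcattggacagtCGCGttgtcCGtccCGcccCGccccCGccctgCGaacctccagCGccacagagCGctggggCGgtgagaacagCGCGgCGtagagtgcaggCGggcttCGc
Sfrp5 (chr19:42202203-42202502, minus strand): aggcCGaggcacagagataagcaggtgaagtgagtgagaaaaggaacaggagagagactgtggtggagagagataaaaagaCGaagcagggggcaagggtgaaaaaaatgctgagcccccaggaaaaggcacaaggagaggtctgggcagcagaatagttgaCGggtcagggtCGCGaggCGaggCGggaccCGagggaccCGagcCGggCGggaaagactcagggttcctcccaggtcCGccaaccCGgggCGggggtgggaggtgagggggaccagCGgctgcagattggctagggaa
Wnt4 (chr4:137277385-137277684, plus strand): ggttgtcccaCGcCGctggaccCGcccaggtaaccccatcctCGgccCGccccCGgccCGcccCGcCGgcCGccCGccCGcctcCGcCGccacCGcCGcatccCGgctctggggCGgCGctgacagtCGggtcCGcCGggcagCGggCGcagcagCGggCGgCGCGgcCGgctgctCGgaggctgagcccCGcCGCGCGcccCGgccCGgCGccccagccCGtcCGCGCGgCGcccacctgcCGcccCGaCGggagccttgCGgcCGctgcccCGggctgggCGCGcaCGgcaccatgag
Fzd10 (chr5:128600856-128601155, plus strand): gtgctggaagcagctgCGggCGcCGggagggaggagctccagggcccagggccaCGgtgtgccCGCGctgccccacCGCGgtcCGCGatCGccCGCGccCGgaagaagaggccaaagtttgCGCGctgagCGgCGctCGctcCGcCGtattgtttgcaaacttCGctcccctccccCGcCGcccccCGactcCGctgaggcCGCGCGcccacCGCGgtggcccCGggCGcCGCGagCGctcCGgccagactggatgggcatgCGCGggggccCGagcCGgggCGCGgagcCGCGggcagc
Dkk2 (chr3:132085042-132085341, plus strand): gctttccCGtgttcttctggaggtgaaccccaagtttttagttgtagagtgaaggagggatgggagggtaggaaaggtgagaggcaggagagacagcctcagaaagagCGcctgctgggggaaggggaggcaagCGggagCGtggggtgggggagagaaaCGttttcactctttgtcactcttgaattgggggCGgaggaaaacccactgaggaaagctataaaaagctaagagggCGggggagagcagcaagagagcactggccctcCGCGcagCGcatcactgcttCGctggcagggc

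The number of CG dinucleotides ranged from 6 to 51 in these 6 windows. Wnt4 and Fzd10, which lacked H3K27me3, held 51 and 45 CG dinucleotides, whereas Wnt8b, with both marks over its whole body, held 6. Fzd4 held 32, Sfrp5 held 15 and Dkk2 held 11. Over the 31 genes, with 1 window a gene, the median was 27 CG dinucleotides and 69% G and C, against 14 and 56.7% over 16457 autosomal protein-coding genes. The median was 27 in 23 genes with both marks and 31 in 7 genes with H2AK119ub alone, against 15 and 19 in all genes of the same classes. By role the median was 31 for Wnt genes, 35 for Fzd genes and 17.5 for antagonist genes. The highest counts were at Wnt9a (58) and Fzd9 (53), which had both marks. The motif CTTTGA, the core of the site bound by TCF and LEF factors, was searched on both strands. It occurred in 4 of the 31 windows (12.9%), those of Wnt11, Fzd1, Frzb and Dkk1, against 14.7% of all windows.

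**Figure D2:**
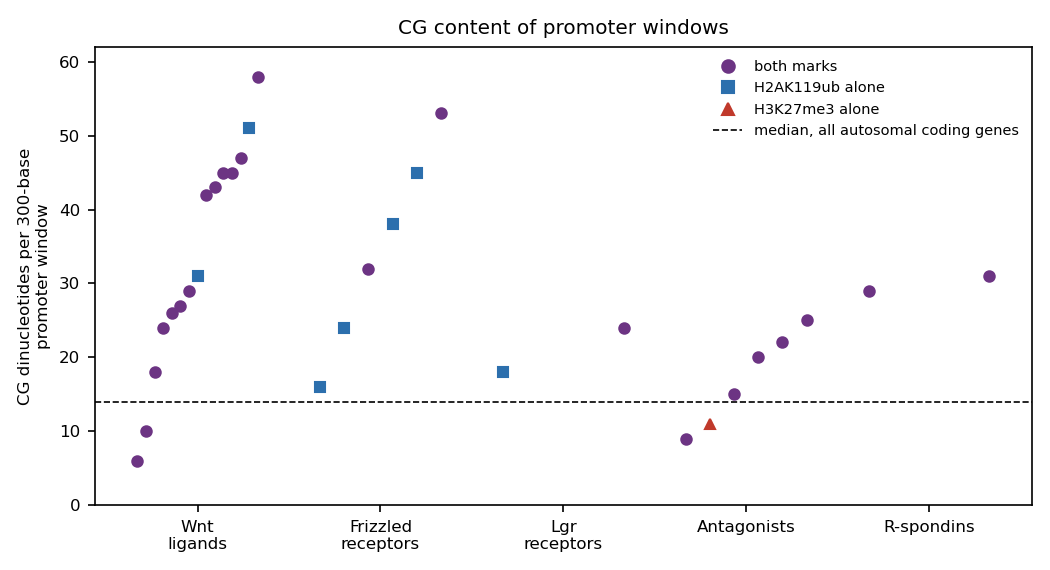
Number of CG dinucleotides in the 300-base promoter window (y axis) of each of 31 genes, grouped by role, with the marks over the gene body plus 1 kb shown by symbol and colour; the dashed line is the median of all autosomal protein-coding genes, 14. Genes with H2AK119ub alone lie at 16 or more, within the range of the genes with both marks.

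At the ligand genes H3K27me3 formed short regions around the start, and H2AK119ub formed longer domains that enclosed them. The widest H3K27me3 region at a Wnt gene ran from 4.36 kb (Wnt5b) to 37.2 kb (Wnt8b), with a median of 11.7 kb. The widest H2AK119ub region ran from 11.3 kb (Wnt2) to 189 kb (Wnt4), with a median of 71.1 kb. Among all autosomal genes with the mark, the corresponding medians were 11.4 kb for H3K27me3 and 20.1 kb for H2AK119ub, so the ligand median was larger for H2AK119ub and about the same for H3K27me3. At 11 of the 15 Wnt genes with both marks, all H3K27me3 lay inside H2AK119ub, against 42% of the 4472 autosomal genes with both marks. No test was made of this difference. Among the 11 genes, Wnt1 with Wnt10b, Wnt3a with Wnt9a and Wnt9b with Wnt3 are linked pairs that share H2AK119ub regions. A shared region was counted for each gene here and in the median widths. H2AK119ub covered the whole body of 12 of 19 Wnt genes, whereas H3K27me3 did so at Wnt1 and Wnt8b and covered a median of 22.6% of the body.

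Wnt8b, a ligand known from the developing forebrain, had H3K27me3 from 44481300 to 44518542 on chromosome 19 and H2AK119ub of 32.9 kb over nearly the same sequence. Wnt7a and Wnt7b, both known in epithelia, had long H2AK119ub domains of 100.7 kb and 161 kb. Their H3K27me3 regions were 18.4 kb and 15.9 kb wide and covered 10.01% and 20.9% of the body. Wnt5a, which mostly signals without beta-catenin, had H3K27me3 of 18.4 kb inside an H2AK119ub region of 25.4 kb on chromosome 14. A second H2AK119ub region of 6.92 kb lay at the higher-coordinate end of Wnt5a. Wnt2 was the other ligand gene besides Wnt8b where H3K27me3 (13.3 kb) was wider than H2AK119ub (11.3 kb). At Wnt16 the H3K27me3 region was 7.49 kb wide and shared 6.73 kb with an H2AK119ub region of 15.6 kb. Wnt2b had H3K27me3 of 11.7 kb inside H2AK119ub of 18.5 kb. Wnt11, which is known to act in cell movements of the embryo, lay whole in a 62.4 kb H2AK119ub region that held H3K27me3 regions of 7.15 kb and 5.63 kb.

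Wnt5b, a close relative of Wnt5a, differed in layout. Its annotated body of 112 kb was met by 6 H2AK119ub regions that covered 90.9% of it, and by H3K27me3 regions of 4.36 kb and 2.03 kb that covered 4.01%. Both H3K27me3 regions lay at the higher-coordinate end, on either side of the annotated start at 119544347 on chromosome 6. That start fell in the 1.01 kb gap between them. The other annotated starts of Wnt5b, at 119467211 and 119449386, were inside H2AK119ub and were 72.1 kb and 89.9 kb from the nearest H3K27me3 region.

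The 4 ligand genes without H3K27me3 were Wnt4, Wnt6, Wnt10a and Wnt8a, and H2AK119ub covered the whole body of each. Wnt4 and Wnt10a are ligands known to be made by epidermal cells. The 189 kb H2AK119ub region over Wnt4 ran from 137123999 to 137312678 on chromosome 4. A 9.08 kb H3K27me3 region lay within it, 141 kb before the gene, and on the other side the nearest one was 106 kb away. Wnt8a, an early embryonic ligand, lay in a 22.6 kb H2AK119ub region on chromosome 18, and its nearest H3K27me3 region was 119.1 kb away. No region list gives expression, so how far these ligands are transcribed in the sorted cells was not analysed here.

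**Figure D3:**
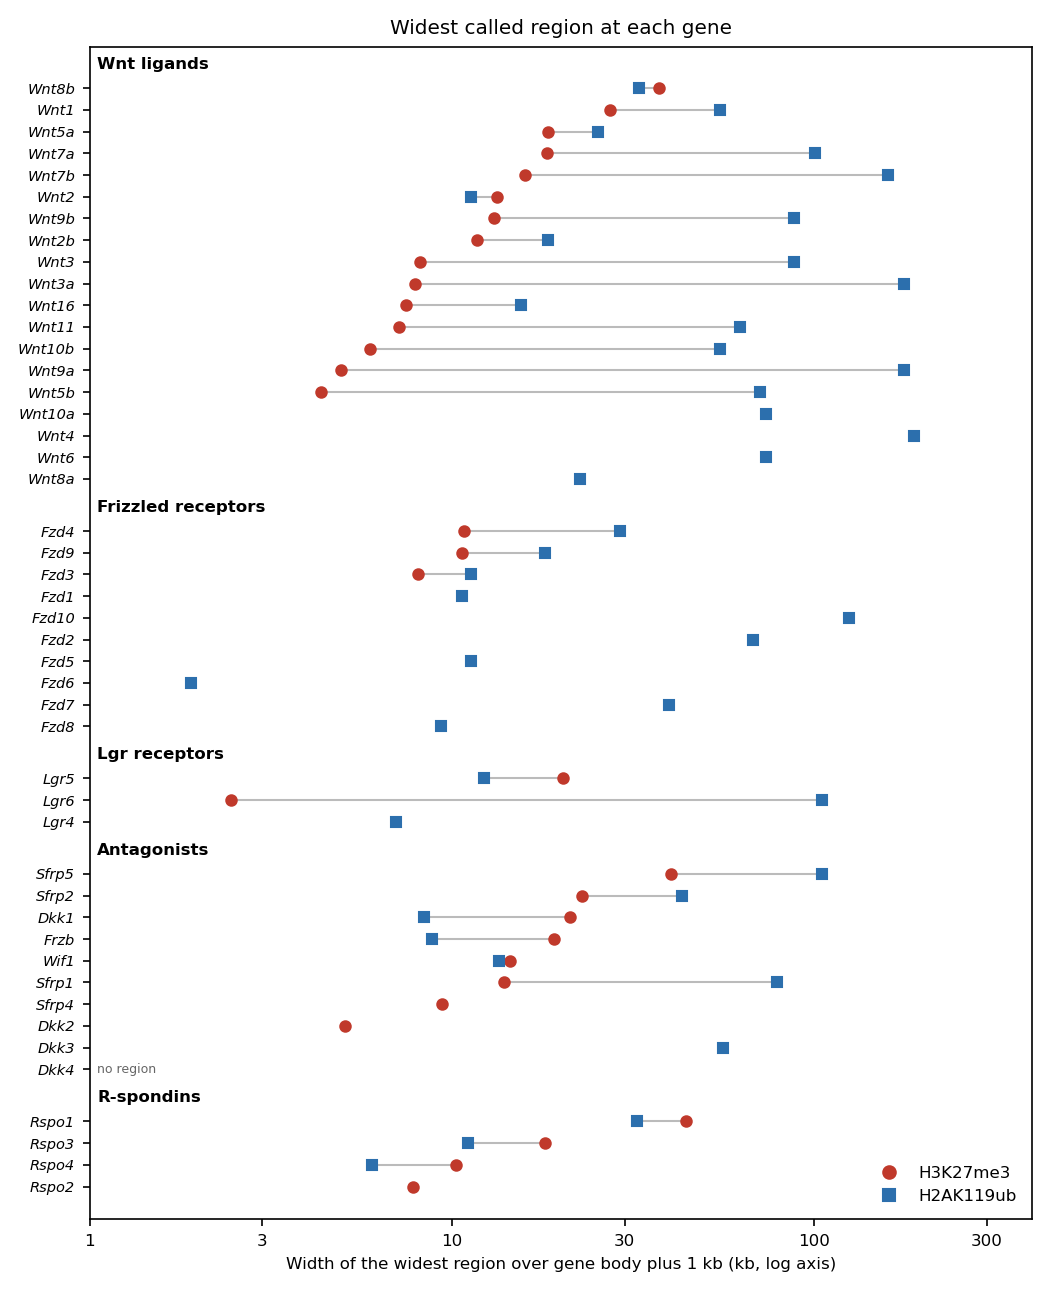
Width of the widest H3K27me3 region (red circles) and H2AK119ub region (blue squares) over each gene body plus 1 kb, in kb on a log axis, with grey lines joining the 2 marks of a gene and genes ordered by H3K27me3 width within each role. H2AK119ub is the wider mark at 13 of 15 Wnt genes with both marks, and H3K27me3 is the wider mark at Dkk1, Frzb, Wif1, Lgr5 and the 3 R-spondin genes with both marks.

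Among the ligand genes 8 lie as 4 linked pairs, counted here as 1 locus where at most 100 kb separated the gene bodies, and the members of a pair were alike in class. Counted by locus, 12 of 15 Wnt loci and 29 of all 42 loci had H3K27me3. Wnt6 and Wnt10a, 6.70 kb apart on chromosome 1, shared a 73.6 kb H2AK119ub region from 74743129 to 74816680 that covered 100% of the pair. No H3K27me3 region touched this pair, although an 87.9 kb one began 27.7 kb beyond Wnt10a, and a 3.26 kb one ended 39.3 kb before Wnt6. Wnt1 and Wnt10b, 11.7 kb apart on chromosome 15 and read in opposite directions away from each other, also shared a single H2AK119ub region, of 55.2 kb. Each had its own H3K27me3 region, of 27.4 kb over the whole of Wnt1 and of 5.95 kb over the start of Wnt10b, separated by a gap of 2.55 kb. H3K27me3 covered 67.2% of that pair.

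The pairs on chromosome 11 had H2AK119ub nearly throughout and H3K27me3 in separate pieces. Wnt3a and Wnt9a, 16.1 kb apart, lay in H2AK119ub regions of 178 kb and 24.3 kb separated by 1.48 kb, which covered 98.3% of the pair. H3K27me3 covered 22.0% of it, in regions of 5.93 kb inside Wnt3a, 7.91 kb over the start of Wnt3a and 4.96 kb over the start of Wnt9a. Wnt9b and Wnt3 have annotated bodies that overlap by 1.098 kb, so the 6.24 kb H3K27me3 region over the start of Wnt3 counts for both genes. Regions of 13.1 kb at the start of Wnt9b, 2.95 kb inside Wnt9b and 8.15 kb inside Wnt3 made up the rest, 33.5% of the pair in all. H2AK119ub covered 98.8% of this pair in 2 regions 1.08 kb apart.

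**Figure D4:**
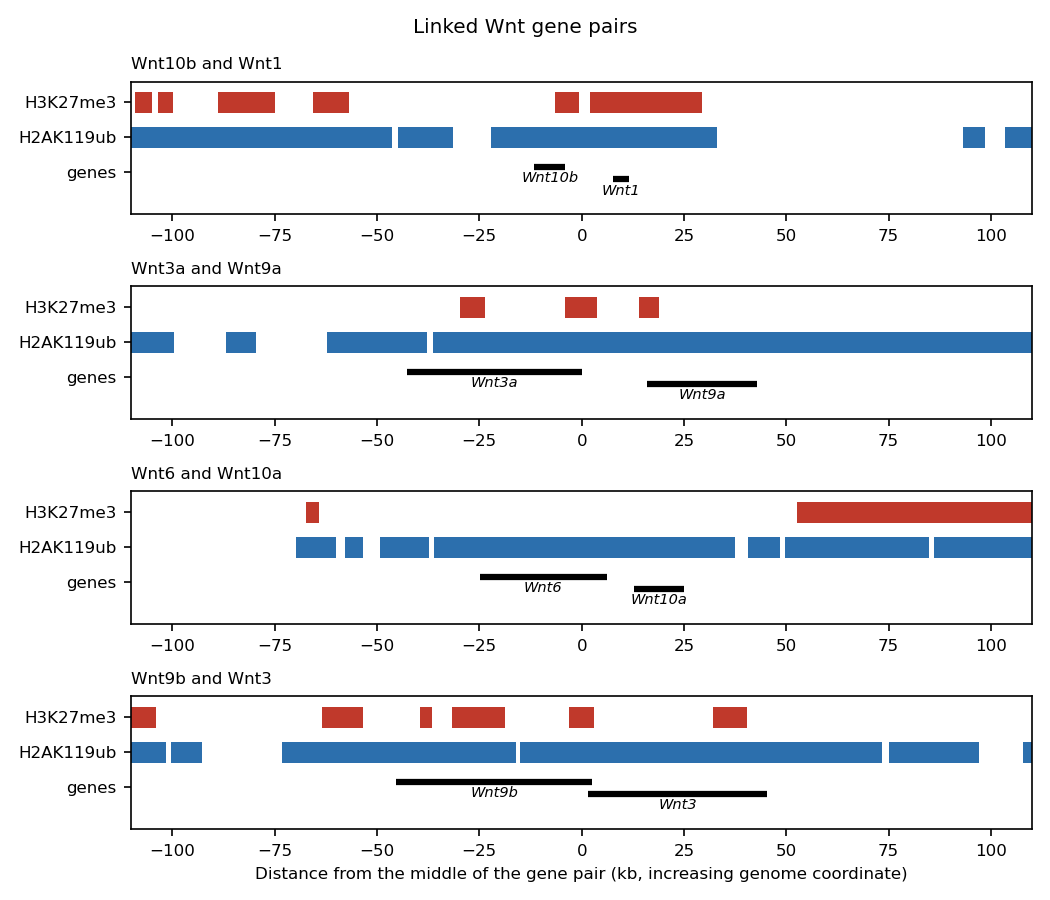
Called H3K27me3 regions (red), called H2AK119ub regions (blue) and annotated gene bodies (black) at the 4 linked Wnt pairs, with the distance from the middle of each pair in kb on the x axis. H2AK119ub covers 98.3% or more of each pair, and H3K27me3 is in separate pieces at 3 pairs and was not called at Wnt6 and Wnt10a.

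Frizzled genes encode the membrane-spanning receptors for Wnts, and 7 of 10 had H2AK119ub alone. Fzd10 lay in a 125 kb H2AK119ub region and Fzd2 at the edge of one of 67.9 kb, which began within the gene and covered 98.8% of it. Fzd7, Fzd5 and Fzd8 lay whole in H2AK119ub regions of 39.8 kb, 11.3 kb and 9.36 kb. The nearest H3K27me3 region was 14.8 kb from Fzd1, 21.3 kb from Fzd2, 37.5 kb from Fzd6 and 47.8 kb from Fzd10. It was 90.2 kb from Fzd5, 146 kb from Fzd7 and 489.5 kb from Fzd8. Fzd10 and Fzd2 nevertheless shared their H2AK119ub region with H3K27me3 pieces away from the gene. Fzd1 had H2AK119ub of 10.7 kb over its body and of 3.72 kb before it, and its annotated start at 4758216 on chromosome 5 fell in the 1.47 kb gap between them. Fzd6, which orients hair follicles in mouse skin, had 1 H2AK119ub region, of 1.904 kb, inside the gene and away from both ends, which covered 5.94% of it. At each of the other 41 genes with H2AK119ub the widest region was wider than this.

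The Frizzled genes with both marks were Fzd4, Fzd9 and Fzd3. Fzd4, also the receptor of Norrin in retinal vessels, had H3K27me3 of 10.8 kb from 89395628 to 89406415 on chromosome 7 and H2AK119ub of 29.1 kb. H3K27me3 there covered 35.7% of the gene and reached 8.74 kb before the start and 2.05 kb beyond it. Fzd9 had 10.6 kb of H3K27me3 inside 18.1 kb of H2AK119ub, over 92.1% and 100% of its body. Fzd3, known from axon guidance, had 8.05 kb of H3K27me3 inside 11.3 kb of H2AK119ub at the higher-coordinate end of a 70.0 kb gene. These 3 H3K27me3 regions were similar in width and each crossed an end of its gene, at Fzd9 together with most of the body.

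The Lgr genes encode the R-spondin receptors and each had a different pattern. Lgr5, a marker of hair follicle stem cells, had 4 H3K27me3 regions on chromosome 10, of 20.3 kb, 13.1 kb, 3.27 kb and 2.65 kb, which covered 20.7% of the gene. H2AK119ub was called in 2 regions of 12.3 kb and 3.1 kb, both wholly inside H3K27me3, so that 39.0% of the H3K27me3 length at Lgr5 carried H2AK119ub. Lgr6, known from stem cells of the follicle isthmus and of the epidermis, was the reverse. H2AK119ub covered 99.1% of Lgr6 in regions of 105 kb and 64.4 kb, and H3K27me3 was a 2.46 kb region over the start. Lgr4, the widely expressed relative, had 3 narrow H2AK119ub regions of 6.33 kb, 7.01 kb and 1.29 kb over 14.3% of its body. No H3K27me3 was called within 217 kb of Lgr4.

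Antagonist genes had H3K27me3 at 8 of 10, and the nesting of the marks differed between them. Of the 6 antagonist genes with both marks, all H3K27me3 lay inside H2AK119ub at 2, Sfrp1 and Sfrp5 (42% of all genes with both marks). The median share of the H3K27me3 length inside H2AK119ub was 96.6%, against 95.4% for all genes with both marks. That share was 39.6% at Dkk1 and 46.1% at Frzb. Sfrp4 and Dkk2, with H3K27me3 alone, are not in this median. Sfrp5 had the widest H3K27me3 of the group, 40.2 kb from 42196181 to 42236375 on chromosome 19, inside 105 kb of H2AK119ub. Sfrp1 had 13.9 kb inside 79.2 kb, and at Sfrp2 98.7% of a 22.9 kb H3K27me3 region lay in H2AK119ub, whose widest region at the gene was 43.2 kb. These secreted Frizzled-related proteins share the Wnt-binding domain of the receptors. Frzb, of the same family, had 19.2 kb of H3K27me3 around a smaller H2AK119ub region of 8.84 kb, and Sfrp4 had 9.39 kb of H3K27me3 alone, with the nearest H2AK119ub region 453 kb away. H3K27me3 was thus called at 5 of 5 genes of this family.

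The Dkk genes took 4 different classes. Dkk1, the classical inhibitor of the co-receptor Lrp6, lay whole in a 21.2 kb H3K27me3 region from 30535892 to 30557093 on chromosome 19, around an H2AK119ub region of 8.39 kb. Dkk2 had a 5.06 kb H3K27me3 region over its start and no H2AK119ub within 497 kb. Dkk3, the divergent member of the family, had H2AK119ub of 55.9 kb and 21.8 kb over 97.2% of its body, and its nearest H3K27me3 region was 441 kb away. Dkk4, known from hair placodes, was the gene with neither mark. The nearest H2AK119ub region was 4.11 kb and the nearest H3K27me3 region 5.96 kb from Dkk4, so a window of 5 kb gave it H2AK119ub. Wif1, which binds Wnts directly, had H3K27me3 of 14.4 kb and H2AK119ub of 13.5 kb over the same start, and a second, smaller pair of regions inside the gene.

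R-spondin genes had H3K27me3 at 4 of 4, and in none of the 3 with both marks did all of it lie inside H2AK119ub. Rspo1 had the widest H3K27me3 region of the 46 genes, 44.3 kb from 124977738 to 125021995 on chromosome 4, which covered the whole gene. H2AK119ub regions of 18.1 kb and 32.5 kb covered 96.5% of that region. Rspo3 had 18.04 kb of H3K27me3 around 11.1 kb of H2AK119ub at the higher-coordinate end of the gene. Rspo4, known for its part in nail formation, counted as having both marks although they did not touch. Its 10.3 kb H3K27me3 region lay over the start and its 6.01 kb H2AK119ub region at the other end, 30.7 kb from the start. Rspo2 had a 7.79 kb H3K27me3 region at the higher-coordinate end, and the nearest H2AK119ub region was 1233 kb away.

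Measured from the starts, H3K27me3 reached about as far before the gene as into it. Of 34 annotated starts of 31 genes, 24 (70.6%) lay inside H3K27me3, against 16.2% of 20085 starts of all genes, and 31 (91.2%) lay inside H2AK119ub, against 38.4%. From these 24 starts H3K27me3 reached a median of 5.78 kb before the gene and 5.14 kb into it. H2AK119ub reached a median of 10.1 kb before the gene and 23.9 kb into it. The longest H3K27me3 reach before a start was 34.1 kb at Sfrp5, and the longest reach into a gene was 35.6 kb at Rspo1.

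**Figure D5:**
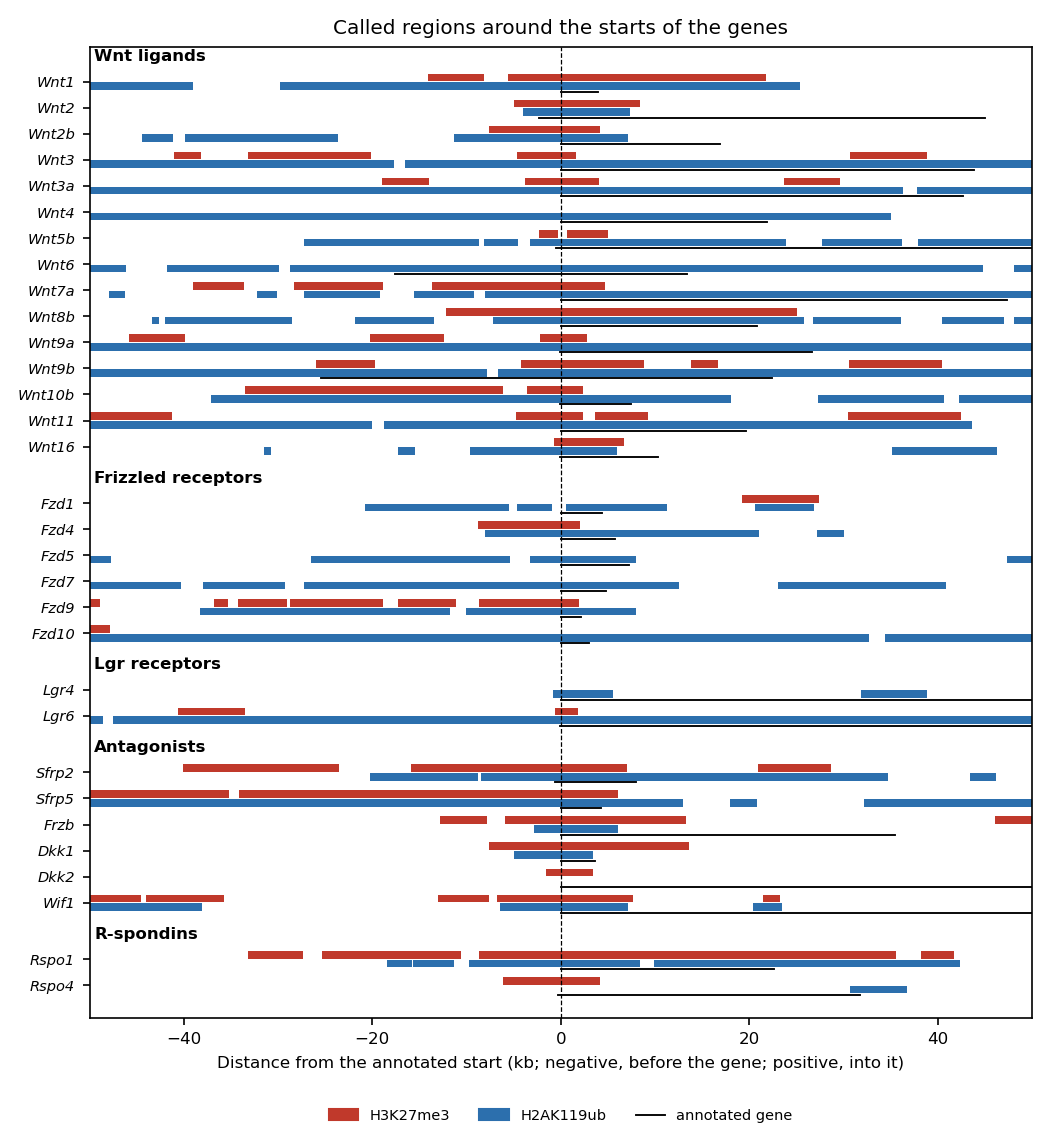
Called H3K27me3 regions (red) and H2AK119ub regions (blue) within 50 kb of the annotated start of 31 genes, each drawn in its own 5′ to 3′ direction with the start at 0 on the x axis (kb) and the annotated gene as a black line; Wnt5b and Wnt11 are drawn from their first listed start. Most H3K27me3 regions straddle the start, the start of Wnt5b lies in a 1.01 kb gap in H3K27me3, and that of Fzd1 lies in a 1.47 kb gap in H2AK119ub.

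Viewed over all 46 genes, 54 distinct H2AK119ub regions and 41 distinct H3K27me3 regions were involved. The H2AK119ub regions had a median width of 22.2 kb, against 8.09 kb for all autosomal regions of that mark, and the H3K27me3 regions 10.3 kb, against 7.69 kb. A wide region meets a gene more easily than a narrow one, which raises these medians for any gene list. Of the H3K27me3 length at these genes 81.1% lay in H2AK119ub, against 66.2% on all autosomes, and of the H2AK119ub length 24.9% lay in H3K27me3, against 23.2%. The autosomal shares also count regions away from genes, so the 2 sets are unlike. Counted by gene, H2AK119ub was present at 90.6% of the members with H3K27me3 and at 87.0% of all genes with H3K27me3. Whole bodies were covered by H2AK119ub at 21 genes (45.7%, against 16.5% of all genes) and by H3K27me3 at 5 genes, Wnt1, Wnt8b, Sfrp5, Dkk1 and Rspo1 (10.9%, against 4.06%). H3K27me3 was the wider mark at 9 of the 29 genes with both marks (31.03%), close to the 32.0% among all genes with both marks. The 9 genes were 2 ligand, 1 receptor, 3 antagonist and 3 R-spondin genes.

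Beyond these 46 genes, the share of pathway genes with H3K27me3 was near that of all genes. A further list of 46 pathway genes gave 13 with H3K27me3 and 41 with H2AK119ub. Without the X-linked gene Porcn, an enzyme that attaches the lipid to Wnts, these were 12 (26.7%) and 40 (88.9%) of 45 genes. H3K27me3 was thus near the 24.9% of all genes. The H2AK119ub share lay above the 60% of all genes and near the 91.3% of the 46 members. Several of the further genes are long, such as Ror1 (349 kb) and Prickle2 (335 kb), against a median of 17.5 kb for all genes. A long gene meets more regions. None of 9 genes of the cytoplasmic relay, among them Ctnnb1, which encodes beta-catenin, Apc and Gsk3b, had H3K27me3 (24.9% of all genes). H2AK119ub was called at 6 of these 9 genes (66.7%), near the 60% of all genes. Of 6 co-receptor genes, Ror2 had H3K27me3, with a widest region of 54.0 kb, Lrp5, Ror1, Ryk and Ptk7 had H2AK119ub alone and Lrp6 had neither. Of 8 nuclear effector genes, the factors Tcf7l1 (39.9 kb) and Lef1 (23.9 kb) had H3K27me3 and all 8 had H2AK119ub.

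H2AK119ub was called at all 6 feedback genes and all 7 polarity genes, as at all Wnt, Fzd, Lgr and nuclear effector genes. The share over all autosomal genes was 60%. At Znrf3 the mark covered as little as 1.12% of the body. Of 6 feedback genes, Nkd1 (30.3 kb) and Nkd2 (9.35 kb), inhibitors of Dishevelled, had H3K27me3, and Axin2, a common readout of the pathway, lay in a 97.1 kb H2AK119ub region alone. Of 7 planar polarity genes, Celsr3 (14.5 kb) and Prickle2 (5.64 kb) had H3K27me3. The further antagonist list gave 3 of 6, with 72.6 kb of H3K27me3 at the bone inhibitor Sost, 21.0 kb at Draxin and 2.23 kb at Kremen2. Notum (12.6 kb), a secreted enzyme that removes the lipid of Wnts, and Tinagl1 (36.02 kb) had both marks, and Wls, the carrier of Wnts through the secretory pathway, had neither.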

How the data were processed

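Chromatin immunoprecipitation was sequenced in 2 libraries for H3K27me3, 2 for H2AK119ub and 1 for input, made from 5 ng of DNA and read as 75 nt single ends, per the labels' protocols. Each file deposited by the authors holds chromosome, start and end of called regions and no signal, per the file headers. Per the submitters' processing notes, Bowtie2 2.3.3.1, SAMtools 1.9 and mm10 were used, in no stated role. The number and width of regions depend on the peak caller, its thresholds, the treatment of the input and whether libraries were pooled. None of these is given in the sources used here. Starts were taken as counted from 0 and raised by 1, so positions may be off by 1 bp.

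Genes, starts and promoter windows came from RefSeq tables of GRCm38.p6. All 46 symbols matched, and 31 had a promoter window. Overlap was scored with Python 3.11.15, numpy 2.4.6 and pandas 2.3.3, and was checked on simulated regions. Shares are set beside those of 20665 autosomal protein-coding genes. The members and gene lists were chosen with earlier results of these data known. Every gene was classed, and region values were given for linked pairs, for genes with H2AK119ub alone, H3K27me3 alone or neither mark, and for the widest regions of each role; further genes were described after their values were seen. No test was made, and 8 alternatives of window, overlap, region width, list size and unit were tried.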

Additional observations from a re-analysis of the deposited data

How the results depend on the processing

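Of 56 values from 7 counts under 8 alternatives, 50 were within 1.5 times the reported count. Some of the 50 could not move. Reducing the H2AK119ub list cannot change a count of genes with H3K27me3. Counting linked pairs as 1 locus cannot change the receptor, antagonist and Rspo counts, because all pairs are Wnt genes. Keeping regions at least as wide as the median of their list gave 21 genes with H3K27me3, against 32 reported, and 19 with both marks, against 29. By role it gave 8 Wnt genes with H3K27me3, against 15, and 3 Fzd and Lgr genes, against 5. Scoring 1 kb around listed starts gave 3 of 8 Fzd and Lgr genes and 2 of 2 Rspo genes with H3K27me3, because fewer genes have a listed start. The body alone, a window of 5 kb, gene ends, an overlap of 500 bp and 1 locus per linked pair gave between 38 and 43 units with H2AK119ub and between 29 and 32 with H3K27me3. With the H2AK119ub list reduced to as many regions as the H3K27me3 list, 37 of 46 genes had H2AK119ub, and Fzd6, Lgr4, Frzb, Dkk1 and Rspo4 lost it. The widest H2AK119ub region at each of these was 8.84 kb (Frzb) or less, narrower than at any other gene with the mark. This alternative thus also removed narrow regions. No paired analysis was possible because the files give 1 list per mark without values per library, and for the same reason no library could be left out.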

Other observations

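Several regions at these genes extended over neighbours that were not members of the list. The 105 kb H2AK119ub region at Sfrp5 also met Zfyve27, Golga7b and Crtac1 and the microRNA gene Mir3085. The H3K27me3 region of 40.2 kb inside it met no other protein-coding gene. Further H3K27me3 regions lay over the same H2AK119ub region, and H3K27me3 covered 88.9% of it in all. The H2AK119ub region shared by Wnt3a and Wnt9a also met Prss38 and Snap47. The 55.2 kb region shared by Wnt1 and Wnt10b met Arf3, Ddn and Prkag1 among others, and the H3K27me3 region over Wnt1 met Ddn. A long noncoding RNA gene, B130046B21Rik, lay under both marks at Wnt1, and AU022754, which overlaps the higher-coordinate end of Wnt7b, lay under H2AK119ub and partly under H3K27me3. Fzd10os, annotated beside Fzd10, lay in the 125 kb H2AK119ub region and was not met by the H3K27me3 regions described there.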
